A study of Brassica napus with 112 samples.

Results

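The comparison described here was between growing seasons in unheated siliques of Solar, a spring hybrid of rapeseed (Brassica napus). Its members were the libraries labelled silique, Solar and control, 14 of the 112 RNA-seq libraries of the series. Season 2 (2020) gave 8 of them, 4 at 7 days after flowering (DAF) and 4 at 14 DAF, and season 1 (2019) gave 6, 3 at each time. The study grew Solar and a further spring hybrid, Lumen, in field trials at Valdivia in southern Chile, and sampled siliques and seeds from control plots and from plots that were warmed after flowering. Control plots were left without manipulation in both seasons. The plots were laid out as a split plot in season 1 and as a randomized block in season 2, so weather, field layout and any difference in handling between the years changed together with season and cannot be told apart in these data.

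A silique is the pod of the Brassicaceae. Its green walls photosynthesize and supply the seeds with carbon, nitrogen and sulfur while the pod elongates, and later the walls stop growing and begin to senesce. Transcript levels in the pod therefore change steeply with its age, and chaperone genes, whose products keep other proteins folded, respond readily to temperature and other stresses in plant tissues.

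The values were the whole-number normalized abundances that the authors deposited for 101040 genes, here called values. A change is the difference in mean log2(value + 0.5), season 2 minus season 1. It was estimated with limma with the sampling time as a covariate, and a gene was past the threshold at a Benjamini-Hochberg adjusted p under 0.01. The values summed to 942983 to 1185609 per library in season 2 and to 936515 to 1245569 in season 1. Correlations between libraries of a condition ranged over 0.878 to 0.937, and those between the seasons at the same time over 0.854 to 0.910. In season 1 the library of replicate 2 at 14 DAF had 10.7% of its summed value in its 10 highest genes, against 3.17% to 5.15% in the other 13 libraries. This library and replicate 1 at 7 DAF of season 2 also had the lowest shares of pseudoaligned reads, so the main counts are given with and without them. The tissue label was checked with 200 genes that were high in Lumen control seeds and low in Lumen control siliques. Their summed value was 204 to 3195 in season 2 and 123 to 3179 in season 1, against a median of 61034 in Lumen control seeds. Of the 122 of these genes that were tested, 0 were past the threshold, but their median change was -0.32, made up of 0.18 at 7 DAF and -0.86 at 14 DAF, where 91 were negative. The part of this in the results below was not tested.

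Between the seasons, 327 of 56057 tested genes were past the threshold (0.583%). Of these, 111 were higher in season 2 (0.198% of the tested genes) and 216 were lower (0.385%), so that 66.1% of the changes were falls. The higher genes had a median change of 1.26 on the log2 scale and the lower genes one of -1.45, and 256 of the 327 genes differed by at least 1 log2 unit. The largest rise was 3.81 and the largest fall -3.93. All 327 genes kept their sign when each sampling time was fitted alone, and 298 of them had seasons that did not overlap at 7 DAF nor at 14 DAF, against 841 genes among all those tested (1.5%). Both counts largely follow from how the genes were chosen, in a fit over these same libraries with both times. The median change of all tested genes was -0.01. Without the pair of libraries with the lowest pseudoaligned share, 48 genes were past the threshold, 22 higher and 26 lower. Leaving out single libraries gave 125 to 517 genes. When each library was instead scaled to the same sum, the count was 304 and falls made up 54.6% of it.

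From the called genes whose mean value reached 20, a rule of size picked the 4 with the largest changes and no overlap. BnaA03g13620D had 93, 58, 125 and 133 at 7 DAF and 33, 88, 18 and 56 at 14 DAF in season 2, against 20, 11 and 20 at 7 DAF and 6, 1 and 3 at 14 DAF in season 1. The season 2 libraries were the higher at both times, although the lowest of them at 14 DAF lay within the range of season 1 at 7 DAF. The means were 75.5 ± 41.4 in season 2 (SD, n = 8) and 10.2 ± 8.33 in season 1 (SD, n = 6), a change of 3.11 ± 0.41 (SE) on the log2 scale with an adjusted p of 0.00209 in limma. BnaA06g26980D had 52, 8, 53 and 48 at 7 DAF and 11, 61, 12 and 38 at 14 DAF in season 2, against 2, 2 and 1 at 7 DAF and 9, 1 and 1 at 14 DAF in season 1. Libraries of season 2 spread widely, from single digits to above 50, and the seasons were apart at each time (change 3.54 ± 0.57, SE, adjusted p = 0.00586). Its adjusted p was 0.0131 to 0.0183 when any library was left out other than replicate 1 at 14 DAF of season 1 and replicates 2 at 7 DAF and 1 and 3 at 14 DAF of season 2, and 0.0427 without the pair of libraries with the lowest pseudoaligned share. With a pseudocount of 5 its change was 2.22 and not past the threshold. For BnaA03g13620D the adjusted p was 0.0113 without that pair.

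Both genes that the rule picked for their falls were lower in every library of season 2 than in any library of season 1. BnaC04g52970D had 8, 9, 9 and 13 at 7 DAF and 17, 14, 24 and 18 at 14 DAF in season 2, against 48, 68 and 31 at 7 DAF and 59, 74 and 70 at 14 DAF in season 1. No season 2 library reached the lowest library of season 1, and the means were 14.0 ± 5.50 in season 2 (SD, n = 8) and 58.3 ± 16.3 in season 1 (SD, n = 6). This gene fell by 2.05 ± 0.18 (SE) on the log2 scale with an adjusted p of 0.000364. BnaC02g20710D had 543, 389, 475 and 609 at 7 DAF and 403, 307, 305 and 455 at 14 DAF in season 2, against 1406, 1761 and 1147 at 7 DAF and 5160, 2281 and 904 at 14 DAF in season 1. Season 1 was the higher throughout, and its 14 DAF libraries were far more scattered than any others (change -2.06 ± 0.33, SE, adjusted p = 0.00619). The adjusted p was 0.0348 without the pair of lowest pseudoaligned share, and 0.0123 to 0.0186 when any library was left out other than replicates 3 at 7 DAF and 1 and 3 at 14 DAF of season 1 and replicates 4 at 7 DAF and 3 at 14 DAF of season 2. The files give no name or product for these 4 genes.

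**Figure D1:**
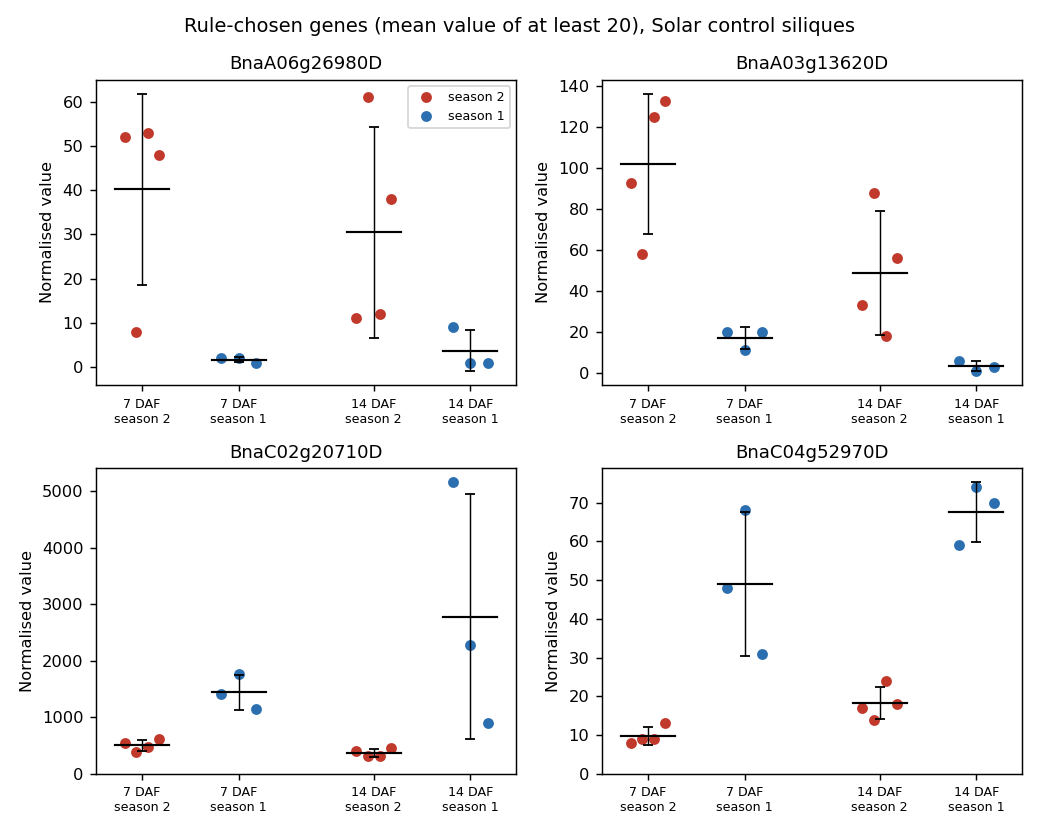
Values of the 4 genes chosen by rule in each library of Solar control siliques, by sampling time and season. Points are libraries, horizontal lines are means and bars are SD, and in each panel season 2 and season 1 do not overlap at either time.

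Called genes of protein folding were all lower in season 2. The list used here holds the first 44 genes that the study annotated with protein folding in a co-expression module of 7 DAF seeds of both seasons, not the whole annotation, and it was not independent of season in this series. Of its 42 tested members, 4 were past the threshold and all 4 were lower (9.52%, against 0.385% of all tested genes), 20 were lower and 0 higher at an adjusted p under 0.05 (against 2.12% lower and 1.29% higher of all tested genes), and the median change was -0.67. The median was -0.81 at 7 DAF alone and -0.65 at 14 DAF alone, and 37 of the 42 members had a negative change. In the same module, unfolded protein binding, the activity by which chaperones hold misfolded chains, had a median of -0.73 over 25 members, 2 of them past the threshold.

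The protein folding member with the largest fall was close to 0 in season 2. BnaA03g32320D had 2, 1, 1 and 1 at 7 DAF and 1, 1, 5 and 2 at 14 DAF in season 2, against 24, 22 and 80 at 7 DAF and 27, 40 and 16 at 14 DAF in season 1. Its highest season 2 library was below its lowest season 1 library, and it fell by 3.93 ± 0.38 (SE) on the log2 scale with an adjusted p of 0.000627. With season 2 near the bottom of the scale, the change was -2.42 with a pseudocount of 5. BnaC07g47630D had 113, 91, 80 and 105 at 7 DAF and 107, 142, 247 and 181 at 14 DAF in season 2, against 276, 233 and 304 at 7 DAF and 433, 709 and 463 at 14 DAF in season 1. Values tended to be higher at 14 DAF in both seasons and the seasons were apart at each time, with a change of -1.58 ± 0.18 (SE, adjusted p = 0.00123). BnaC02g12750D, also annotated with ATP hydrolysis, had 10, 15, 16 and 15 at 7 DAF and 13, 12, 14 and 13 at 14 DAF in season 2, against 45, 36 and 100 at 7 DAF and 33, 48 and 22 at 14 DAF in season 1. It lay in a narrow band in season 2 and above that band in every season 1 library (change -1.62 ± 0.24, SE, adjusted p = 0.0037). Its adjusted p was 0.0231 without the pair of lowest pseudoaligned share, 0.0104 without replicate 1 at 7 DAF of season 1, 0.0117 without replicate 2 at 14 DAF of season 1 and 0.0106 without replicate 2 at 14 DAF of season 2. The last of the 4, BnaC01g38510D, was listed at 0 in 7 of the 8 season 2 libraries and at 1 in replicate 3 at 14 DAF, against 5, 3 and 20 at 7 DAF and 9, 8 and 4 at 14 DAF in season 1. Its adjusted p was 0.000927, and no fold is given because season 2 was at the bottom of the scale. Except for BnaC02g12750D, these genes were named after their values had been seen.

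Chaperone lists from another module had medians near 0 over both times, positive at 7 DAF and negative at 14 DAF. The protein folding genes of that seed module (the first 44) had 0 members past the threshold. Their median was 0.14, made up of 0.37 at 7 DAF and -0.08 at 14 DAF. Its unfolded protein binding genes had a median of 0.13, made up of 0.38 at 7 DAF and -0.17 at 14 DAF, and 1 member past the threshold. That member, BnaA09g29100D, had 42, 30, 18 and 36 at 7 DAF and 42, 27, 31 and 35 at 14 DAF in season 2, against 71, 54 and 79 at 7 DAF and 70, 121 and 75 at 14 DAF in season 1. Every season 1 library was above every season 2 library, and the gene fell by 1.25 ± 0.19 (SE) on the log2 scale (adjusted p = 0.00524). The adjusted p was 0.0141 without the pair of lowest pseudoaligned share, and 0.0108 to 0.0144 without replicates 1 or 3 at 7 DAF or 2 or 3 at 14 DAF of season 1, or replicates 2 at 7 DAF or 2 or 4 at 14 DAF of season 2. Genes annotated with response to endoplasmic reticulum stress in the same module had a median of 0.03 over 29 members, made up of 0.24 at 7 DAF and -0.17 at 14 DAF.

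Sulfate assimilation, by which plants activate and reduce sulfate for cysteine and for sulfated compounds such as glucosinolates, also had called genes that were all lower in season 2. Of 9 tested genes with this annotation, 3 were past the threshold and lower (33.3%, against 0.385%), and the median change was -0.99, with -1.19 at 7 DAF and -0.85 at 14 DAF. All 3 carried the term adenylylsulfate kinase activity, the step that makes the active sulfate donor. That term was held by 7 tested genes of the module, so it does not set the 3 apart from most of the list. Both the term and the 3 genes were picked after their values had been seen. BnaA03g38670D had 7, 8, 8 and 8 at 7 DAF and 10, 11, 19 and 14 at 14 DAF in season 2, against 27, 32 and 16 at 7 DAF and 36, 33 and 30 at 14 DAF in season 1. The seasons were apart at each time, with a change of -1.44 ± 0.17 (SE, adjusted p = 0.00126). BnaC09g08710D changed by -1.15 ± 0.15 (SE, adjusted p = 0.00223; -0.65 with a pseudocount of 5) and had values of 2 to 6 in season 2, against 7 to 10 in season 1. BnaA03g54400D changed by -1.42 ± 0.23 (SE, adjusted p = 0.00554) and had values of 3 to 12 in season 2, against 9 to 35 in season 1. For both, the seasons did not overlap at 7 DAF nor at 14 DAF. BnaA03g54400D had an adjusted p of 0.0115 to 0.0156 when any library was left out other than replicates 3 at 7 DAF and 2 at 14 DAF of season 1 and replicates 4 at 7 DAF and 3 and 4 at 14 DAF of season 2. Without the pair of libraries with the lowest pseudoaligned share, 1 of the 9 genes was past the threshold and the median was -0.73.

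**Figure D2:**
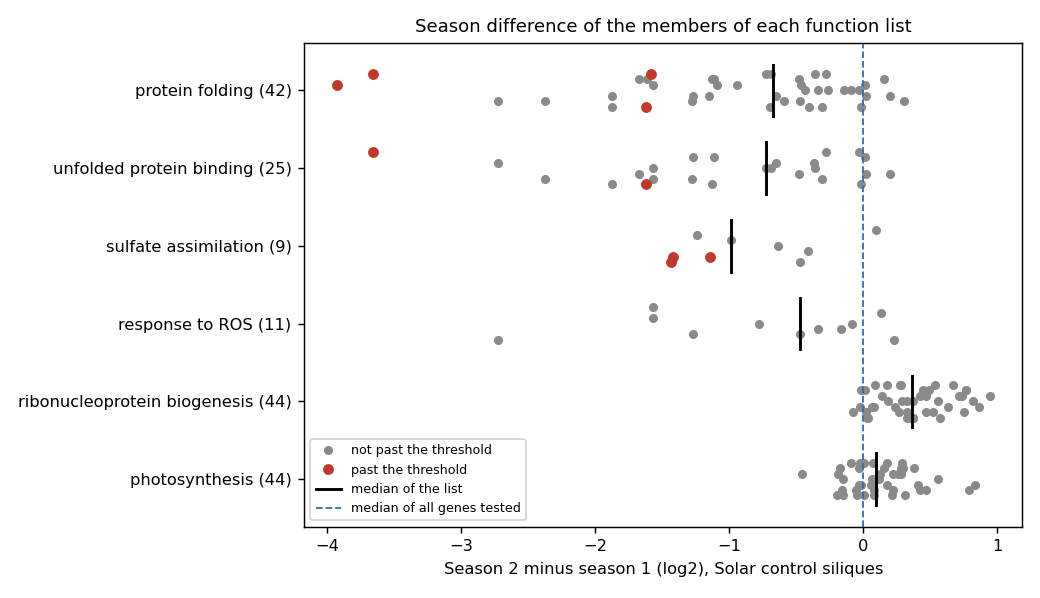
Changes of the members of 6 function lists, season 2 minus season 1 on the log2 scale, in Solar control siliques. Points are genes, with those past the threshold marked, and lines are list medians. Protein folding and sulfate assimilation lie mostly below 0, with medians of -0.67 and -0.99.

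The remaining lists held few called genes. Ribonucleoprotein complex biogenesis, which feeds ribosome assembly, had 0 of its first 44 members past the threshold and a median of 0.36, made up of 0.76 at 7 DAF and -0.11 at 14 DAF. Photosynthesis also had 0 of its first 44 members past it, and its median was -0.21 at 7 DAF, with 35 members negative, and 0.45 at 14 DAF, with 3 members negative. Over all terms that the study printed for its modules, including terms outside these lists, 16 of the 1711 tested genes were past the threshold. They were 4 higher genes (0.234%, against 0.198% of all tested genes) and 12 lower genes (0.701%, against 0.385%). No function list used here held any of the higher ones. Among the higher ones, BnaC05g47450D, annotated with NAD and NADP binding and named after its values had been seen, had 150, 113, 127 and 140 at 7 DAF and 122, 91, 72 and 92 at 14 DAF in season 2, against 71, 76 and 93 at 7 DAF and 57, 62 and 48 at 14 DAF in season 1. The seasons did not overlap at either time, and the change was 0.73 ± 0.13 (SE, adjusted p = 0.0091).

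Called genes that also changed with pod age did so in 1 direction only, higher in season 2 where they fall with age and lower where they rise with it. Age was measured in libraries that the season comparison did not use, as the 14 DAF against 7 DAF difference in Lumen control siliques, where 8890 genes were past the threshold (15.9%), 4144 rising and 4746 falling with age. Of the 111 genes that were higher in season 2 in Solar, 52 had an age call in Lumen, and all 52 fell with age. Of the 216 lower genes, 87 had an age call, and all 87 rose with age. The other 188 of the 327 genes had none, although by sign alone 101 of the 111 higher genes went down with age in Lumen and 190 of the 216 lower genes went up, against 51.5% going up among all tested genes. At an adjusted p under 0.05 there were exceptions, since 248 of 254 higher genes with an age call fell with age and 427 of 429 lower ones rose. As shares of the lists, 2.10% of the genes that rise with age were lower in season 2 (0.385% of all tested genes) and 1.10% of those that fall with age were higher (0.198% of all). Without the pair of libraries with the lowest pseudoaligned share, all 13 called higher genes with an age call fell with age and all 8 called lower ones rose. The split was not particular to unheated Solar siliques. Among genes called between seasons in Solar heated siliques, 243 of 250 higher genes with an age call fell with age and 111 of 112 lower ones rose. In Solar control seeds these were 369 of 380 and 207 of 217. The function lists overlapped the age lists. Of the 9 sulfate assimilation genes, 5 rose with age in Lumen, among them the called BnaA03g38670D and BnaA03g54400D, and 0 fell. Of the 42 protein folding genes 6 rose and 2 fell, and of the 44 ribonucleoprotein genes 0 rose and 37 fell. How much of the season changes of these lists goes with age was not tested.

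Within each age list most members shared a sign, negative in the rising list and positive in the falling list. The medians were larger in size at 7 DAF than at 14 DAF. Genes that rise with age had a median season change of -0.31, and 81.1% of them had a negative change, against 51.0% of all tested genes. Genes that fall with age had a median of 0.27, and 85.6% had a positive change, against 49.0% of all. At 7 DAF alone the medians were -0.49 for the rising list and 0.47 for the falling list. At 14 DAF alone they were -0.14 and 0.04, and the difference between the times was not tested for the lists. At 14 DAF 61.0% of the rising list was negative, against 49.05% of all tested genes. Of the falling list 54.8% was positive at that time, near the 50.95% of all. In the sampling times fitted alone, the genes at an adjusted p under 0.05 with an age call split in the same way at 7 DAF, where 214 of 215 higher genes fell with age and 196 of 199 lower genes rose with it. At 14 DAF 20 of 30 higher genes fell with age and 24 of 27 lower genes rose.

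An age score, the mean log2 value of the rising list minus that of the falling list, gave these differences per library. At 7 DAF it was -1.38, -1.23, -0.92 and -1.35 in Solar in season 2, against -0.13, 0.11 and -0.34 in season 1. The seasons were well apart at this time, with means of -1.22 ± 0.21 in season 2 (SD, n = 4) and -0.12 ± 0.22 in season 1 (SD, n = 3). At 14 DAF the score was -0.32, -0.06, 0.89 and 0.33 in season 2, against 0.50, 0.61 and 0.42 in season 1. Season 2 was more scattered at this time and reached both below and above season 1. In Lumen at 7 DAF, from which the lists came, the means were -1.29 ± 0.32 in season 2 (SD, n = 4) and -1.48 ± 0.18 in season 1 (SD, n = 3). The score of Solar at 7 DAF in season 2 was thus near that of Lumen at 7 DAF in either season, and the score of Solar at 7 DAF in season 1 lay between the 7 and 14 DAF levels of Lumen.

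**Figure D3:**
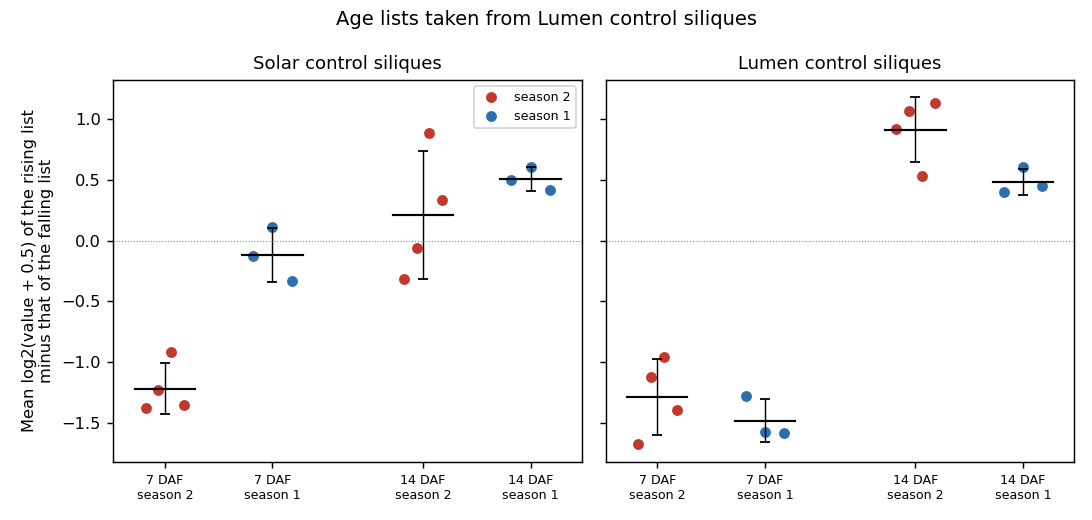
Age score of each control silique library, the mean log2 value of genes rising with age minus that of genes falling with age in Lumen, for Solar and Lumen by sampling time and season. Points are libraries, lines are means and bars are SD. Solar at 7 DAF has means of -1.22 in season 2 and -0.12 in season 1.

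**Figure D4:**
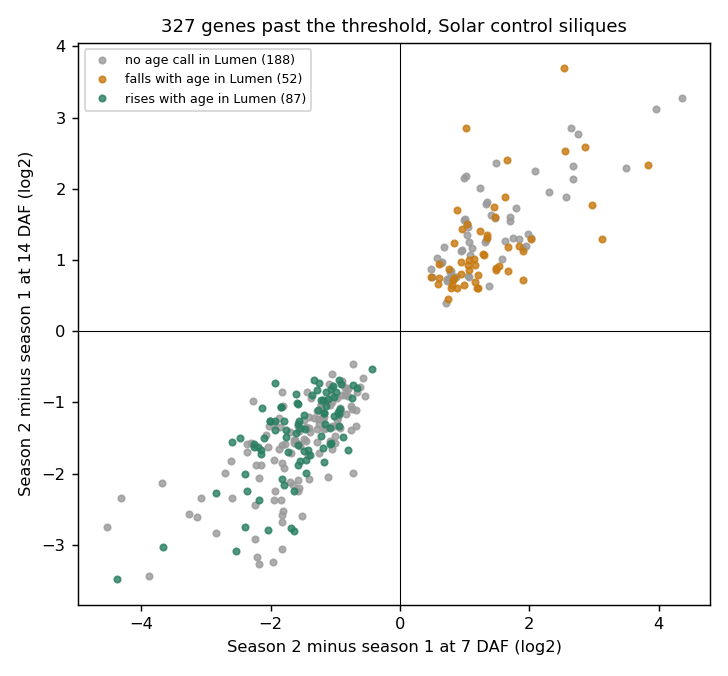
Season changes (season 2 minus season 1, log2) of the 327 genes past the threshold, at 7 DAF on the horizontal axis and at 14 DAF on the vertical axis. Colours give the age call in Lumen control siliques, 87 rising, 52 falling and 188 with no call. All genes lie in the quadrants where both changes have the same sign, which largely follows from their choice in a fit over both times, rising genes below 0 and falling genes above 0.

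Fitted alone, neither sampling time had a gene past the threshold in limma. At 7 DAF 9978 genes (17.8%) had an unadjusted p under 0.05 and 774 an adjusted p under 0.05, 338 higher (0.603%) and 436 lower (0.778%). At 14 DAF 9948 genes had an unadjusted p under 0.05 and 471 an adjusted p under 0.05, 248 higher (0.442%) and 223 lower (0.398%). Only 21 genes were in both sets. Of the 774 genes from 7 DAF, 67.1% had the same sign at 14 DAF, and of the 471 genes from 14 DAF, 65.8% had the same sign at 7 DAF, against 56.5% of all tested genes. The difference between the times was past the threshold for 1 gene (0.00178%) and 7527 genes had an unadjusted p under 0.05 for it. That gene, BnaC08g35820D, had 55, 52, 54 and 63 at 7 DAF and 90, 87, 98 and 114 at 14 DAF in season 2, against 161, 195 and 160 at 7 DAF and 81, 69 and 76 at 14 DAF in season 1. It was lower in season 2 at 7 DAF and higher in season 2 at 14 DAF, with an interaction of 1.97 ± 0.19 (SE, adjusted p = 0.00784). It was not past the threshold when any of the 14 libraries was left out, with an adjusted p of 0.01002 to 0.043.

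Called genes that respond to warming in Lumen siliques had season changes opposite in sign to the heat response. In Lumen, 78 genes were raised and 145 lowered by heat (223 genes, 0.398% of those tested). In Solar controls, 3 of the 78 raised genes were lower in season 2 and 0 higher (3.85% lower, against 0.385% of all tested genes), with a median of -0.32. Of the 145 lowered genes, 10 were higher and 0 lower (6.90% higher, against 0.198% of all), with a median of 0.21. The raised list had medians of -0.17 at 7 DAF and -0.40 at 14 DAF, and the lowered list -0.15 at 7 DAF and 0.54 at 14 DAF. BnaC01g38510D, the protein folding gene listed at 0 in most season 2 libraries, was among the raised genes. These lists overlapped the age lists. Of the 78 raised genes 27 rose and 12 fell with age in Lumen, and of the 145 lowered genes 33 fell and 6 rose. How much of these medians goes with age was not tested.

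The share of the 327 genes with the same sign was higher in other Solar libraries than in Lumen. Each of the following sets held 8 season 2 and 6 season 1 libraries, none of them among the 14 libraries that gave the 327 genes. The Lumen siliques also gave the age and heat lists above, and Solar heated siliques and seeds came from the same trials, the seeds possibly from the same plots. In Solar heated siliques, 311 of the 327 genes had the same sign (95.1%, against 68.9% of all tested genes), with medians of 0.73 for the higher and -0.82 for the lower genes. There 62 genes were past the threshold in the same direction, 62 of the 327 genes and 8.03% of the 772 called in that set (1.38% of those tested). In Solar control seeds, 284 had the same sign (86.9%, against 65.8% of all), with medians of 0.48 and -0.63, and 71 were past the threshold in the same direction, 21.7% of the 327 genes and 4.55% of the 1559 called there (2.78% of those tested). In Lumen control siliques, 212 had the same sign (64.8%, against 51.5% of all), with medians of 0.11 and -0.21. Of the 781 genes called there (1.39% of those tested), 25 were among the 327 in the same direction and 1 in the opposite one, 7.65% of the 327 genes and 3.20% of those called there. In Lumen heated siliques, 219 had the same sign (67.0%, against 56.2% of all), with medians of 0.21 and -0.18, and 1 was among the 45 genes called there (0.0803% of those tested).

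**Figure D5:**
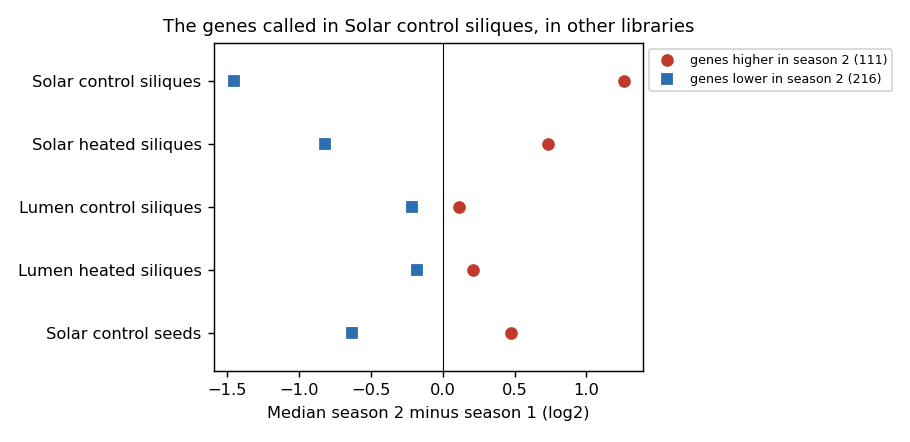
Median season change (season 2 minus season 1, log2) of the 111 higher and the 216 lower genes of Solar control siliques in 5 library sets of 14 libraries each. Medians in Solar control siliques themselves follow from how the genes were chosen. In Lumen control siliques the medians are 0.11 and -0.21.

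The season change in control siliques differed between the hybrids for 440 genes (0.785%) in a fit with the interaction of season and hybrid, 204 with a more positive change in Solar (0.364%) and 236 with a more negative one (0.421%). BnaA03g13620D, with values in Solar given above, had 126, 91, 83 and 24 at 7 DAF and 6, 9, 5 and 7 at 14 DAF in season 2 in Lumen, against 79, 167 and 85 at 7 DAF and 11, 15 and 32 at 14 DAF in season 1. In Lumen its level depended on sampling time in both seasons, and the difference between the hybrids was 4.07 with an adjusted p of 0.000553. BnaC07g29960D had 73, 15, 89 and 67 at 7 DAF and 15, 92, 22 and 60 at 14 DAF in Solar in season 2, against 2, 2 and 2 at 7 DAF and 15, 1 and 2 at 14 DAF in season 1. In Solar the seasons were apart at 7 DAF and met at a value of 15 at 14 DAF. Lumen had values of 3 to 74 in season 2 and of 7 to 110 in season 1 (interaction 4.41, adjusted p = 0.00536, and 2.94 and not past the threshold with a pseudocount of 5). The adjusted p was 0.018 without the pair of lowest pseudoaligned share, 0.0115 without replicate 3 at 7 DAF of season 1, 0.011 without replicate 2 at 14 DAF of season 1 and 0.0107 without replicate 2 at 14 DAF of season 2, all in Solar.

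On the negative side, BnaA07g24880D had 0, 3, 0 and 1 at 7 DAF and 10, 6, 12 and 25 at 14 DAF in Solar in season 2, against 24, 132 and 18 at 7 DAF and 39, 34 and 156 at 14 DAF in season 1. In Lumen season 2 was the higher, with 1 to 258 in season 2 and 0 to 5 in season 1, and the interaction was -6.57 (adjusted p = 0.00122). Its size depends on the pseudocount because Solar in season 2 and Lumen in season 1 were listed at or near 0, and it was -3.84 with a pseudocount of 5. BnaA02g15920D also had opposite directions in the hybrids, with seasons that overlapped, 0 to 53 in season 2 and 7 to 174 in season 1 in Solar, and 2 to 1152 in season 2 and 1 to 17 in season 1 in Lumen (interaction -5.73, adjusted p = 0.00546, and -4.13 and not past the threshold with a pseudocount of 5). These opposite directions were not seen in heated siliques, where season changes were positive in both hybrids and none was past the threshold. There BnaA07g24880D changed by 1.46 in Solar and 2.51 in Lumen, and BnaA02g15920D by 2.22 and 3.01. BnaA03g13620D changed by 1.63 in Solar and 1.215 in Lumen, and BnaC07g29960D by 2.07 and 1.82. Of the protein folding list, 6 of 42 members had an interaction with hybrid past the threshold (against 0.785% of all tested genes), and its median season change was -0.67 in Solar controls and 0.04 in Lumen controls. In Solar heated siliques it was -0.59 and in Solar control seeds -0.56. Sulfate assimilation had medians of -0.99 in Solar control siliques, 0.05 in Lumen control siliques, -0.24 in Solar heated siliques and -0.58 in Solar control seeds, and 1 of its 9 members had an interaction with hybrid past the threshold (against 0.785% of all).

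Within Solar, few genes had a season change that differed by treatment or tissue. Control and heated siliques differed for 2 genes (0.00357%; 3489 at an unadjusted p under 0.05), with interactions of -2.99 for BnaA03g26130D and -2.26 for BnaC03g24270D. Siliques and seeds differed for 16 of 48883 genes (0.0327%), 11 more positive and 5 more negative in siliques, and 4628 genes had an unadjusted p under 0.05. The protein folding gene BnaA03g32320D changed by -2.76 in Solar heated siliques (adjusted p = 0.0012 in the fit of those libraries) and by -2.44 in Solar control seeds (adjusted p = 0.0026), but by 0.26 in Lumen control siliques. BnaC04g52970D changed by -1.74 in Lumen control siliques (adjusted p = 0.0036 in the fit of those libraries), so its fall was also present in unheated siliques of the other hybrid. It was negative but not past the threshold in Lumen heated siliques (-0.85, adjusted p = 0.353), Solar heated siliques (-1.23, adjusted p = 0.0268) and Solar control seeds (-0.92, adjusted p = 0.152).

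The study's networks named 10 transcription factors as hubs, and none of the 9 that were tested was past the threshold. Their changes ranged over -0.31 to 0.98, with adjusted p of 0.0935 to 0.736. ABI4 (BnaA03g18970D), a factor of abscisic acid signalling in Arabidopsis, had 8, 7, 6 and 8 at 7 DAF and 5, 7, 2 and 7 at 14 DAF in season 2, against 2, 2 and 8 at 7 DAF and 2, 2 and 3 at 14 DAF in season 1. The seasons overlapped at both times, and the change was 0.98 ± 0.30 (SE, adjusted p = 0.0935). In Solar control seeds it was 1.05 with an adjusted p of 0.0027. SEP3 (BnaC03g57540D), a MADS-box factor of floral organ identity in Arabidopsis, changed by 0.26 in Solar control siliques (adjusted p = 0.383) and by 1.05 in Solar control seeds (adjusted p = 0.000252). MYC67 (BnaC08g31840D) had 0.90 (adjusted p = 0.165), NGA1 (BnaC03g72370D) 0.27, OSX2 (BnaA04g24200D) -0.17, ARF2 (BnaA06g21460D), an auxin response factor, -0.11, and PHL2 (BnaC03g43430D) -0.07. INO1 (BnaC05g18750D) was listed at 0 or 1 and was not tested.

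The called genes were spread over the genome. The share past the threshold was 0.585% in the A subgenome and 0.582% in the C subgenome, and 0.318% on chromosome A01 to 0.915% on chromosome A05. In 551 blocks of 100 neighbouring tested genes, 311 blocks held 0 called genes, 174 held 1, 54 held 2 and 12 held 3 or more, with at most 5. The A and C subgenomes hold gene copies of near-identical sequence, and how reads were divided between copies limits the value of any single gene named here.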

How the data were processed

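Siliques of field-grown Solar control plots were compared between season 2 and season 1, with groups and replicate numbers taken from the sample labels. The authors pseudoaligned RNA-seq reads with kallisto (version 0.46 in the submitters' processing notes) to the AST_PRJEB5043_v1 gene models, and the study tested with Sleuth. The table that the authors deposited holds whole numbers, used here as a score of unstated scaling and not as read counts, so depth per gene is unknown. The study's library table lists 14244127 to 17656426 pseudoaligned reads per library, 69.1% to 75.0% of the reads. All columns of the table were mapped to samples.

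Genes were tested where 6 or more of the 14 libraries had a value of 1 or more, on log2(value + 0.5) with limma 3.58.1 (trended prior variance) in R 4.3.3, with sampling time as covariate, and at each time alone. Interactions with time, hybrid, treatment and tissue were fitted over the libraries of the groups concerned. Adjustment was by Benjamini-Hochberg over all genes tested, at a threshold of 0.01. The code was tested on simulated data. Replicates are separate libraries, each from an independent field plot according to the study's sampling methods, although the field layout is described with 3 replicates in both seasons and season 2 has 4 libraries per condition. The p-values measure the spread between these libraries. Plots may have been sampled at both times. In bulk tissue, fewer cells of a type and less RNA per cell cannot be told apart.

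The members and lists were chosen with earlier results of these data known. Age and heat lists came from Lumen siliques. Function lists came from the study's annotation of co-expression modules, long ones shortened to the first 44 genes. The text names the study's 10 hub factors, the 2 largest rises and falls past the threshold whose mean value reached 20, with no overlap at either time, the 2 most positive and negative interactions with time and with hybrid at that mean, and per function list the largest rise and fall at that mean. The same rule at each time alone gave no gene. Alternatives were a pseudocount of 5, other filters and scalings, a threshold of 0.05, no trend, blocks for replicate number or plot, alignment share as covariate, all 56 silique libraries in one fit, and each library left out. Leaving out the pair of libraries with the lowest pseudoaligned share was added after seeing the data. Sequences were not used here.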

Additional observations from a re-analysis of the deposited data

Results flagged for a closer look

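In all, 63 groups of 4 libraries were examined for a library far from the other 3, and 11 were marked. Where the other 3 libraries are tied, as happens with small whole numbers, any gap is marked. The number of marks therefore cannot be set against a chance rate. Replicate 1 of season 2 at 7 DAF had 5 of the low or high gene values, namely 1 for NGA1 (BnaC03g72370D; 4 in the others), 10 for BnaC02g12750D (15 to 16), 2 for BnaA03g32320D (1), 7 for BnaA03g38670D (8) and 2 for BnaC09g08710D (3). It also had 5.15% of its summed value in its 10 highest genes, against 3.41% to 3.57% in the others. Replicate 3 of season 2 at 14 DAF had 8 for BnaC05g51140D (6 in the others) and 1 for BnaC01g38510D (0). At 7 DAF in season 2, replicate 2 had 8 for BnaA06g26980D (48 to 53 in the others) and replicate 3 had 7 for BnaA02g15920D (0 to 1). The summed value of the seed list was 3195 in replicate 4 of season 2 at 14 DAF, against 204 to 625 in the others. Several of these gaps are of 1 unit, the step of the rounding.

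The season effect differed between groups, by limma's interaction term, for 1 gene between 14 and 7 DAF, 440 genes between Solar and Lumen, 2 genes between control and heated siliques, and 16 genes between siliques and seeds. The named interactions were 1.97 for BnaC08g35820D with time, 4.41 for BnaC07g29960D, 4.07 for BnaA03g13620D, -6.57 for BnaA07g24880D and -5.73 for BnaA02g15920D with hybrid, and -2.99 for BnaA03g26130D and -2.26 for BnaC03g24270D with treatment.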

How the results depend on the processing

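The count of 327 genes moved by more than 1.5 times when the threshold was 0.05 (1916), without the pair of libraries with the lowest pseudoaligned share (48), with all 56 silique libraries in one fit (1911), and with the replicate block (0). Leaving out single libraries (in each fit, those of Solar control siliques) gave 125 to 517. The libraries that moved it by more than 1.5 times were replicates 1 (152), 2 (157) and 3 (201) at 7 DAF and 2 (152) and 3 (179) at 14 DAF in season 1, and replicate 1 at 7 DAF (176) and replicates 1 (177), 2 (125), 3 (517) and 4 (194) at 14 DAF in season 2. Same-numbered libraries had deviations from their condition means that correlated at -0.19 to 0.10. These correlations come from few libraries per condition and cannot tell whether same-numbered libraries share a plot or block. Why the replicate block gave 0 genes was not tested. A plot as random block, taken as season and replicate number, gave 481. The consensus correlation of libraries within such a plot was -0.06 in that fit, so the higher count does not show a gain from shared plots. Alignment share as covariate gave 230.

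At 7 DAF alone the count was 28 with a mean of at least 20, 107 with the filter over 47% of silique libraries, 1 with libraries scaled to the same sum, 774 at 0.05, 144 without trend and 0 with the replicate block, and 0 to 316 with single libraries left out. At 14 DAF alone these counts were 2, 81, 1, 471, 114 and 0, with 1 under median-ratio rescaling and 0 to 350 with libraries left out. For season by time they were 17 (mean of at least 20), 0 (same sum), 119 (0.05), 6 (no trend), 0 (replicate block), 0 without the low pair and 0 with any library left out. For season by hybrid they were 252 (mean of at least 20) and 2455 (0.05), with 328 under the replicate block and 247 to 684 with libraries left out. For season by treatment they were 4 (mean of at least 20), 12 (0.05), 1 (replicate block), 1 without the low pair and 1 to 7 with libraries left out. For season by tissue they were 32 (pseudocount of 5), 65 (no filter), 10 (mean of at least 20), 41 (filter of 47%), 5 (same sum), 82 (0.05), 12 (replicate block), 10 without the low pair and 4 to 26 with libraries left out. The causes were not tested.

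Named genes and lists kept direction and side of the threshold in 748 cases, lost the call in 86 and changed sign in 2. The photosynthesis median was -0.029 to 0.19 with libraries left out, -0.029 without season 1 replicate 1 at 14 DAF, and ARF2 (BnaA06g21460D) was at 0.0001949 without the low pair. The sulfate assimilation median was -0.65 with a pseudocount of 5 and -0.73 without the low pair, and the ribonucleoprotein median 0.22 with a pseudocount of 5.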
